A study of Mus musculus with 7 samples.

Results

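Cerebella of C57BL/6 mouse pups at postnatal day 15 were compared here by how much of the proliferation gene Mki67 their RNA held, not by the design of the study. The members of each side, 3 and 4 of the 7 libraries in all, were chosen by the measured level of Mki67. The low side comprised the 3 libraries with Mki67 under 100 CPM (counts scaled to a library total of 1e6), and the high side comprised the other 4. The low libraries were wild-type (WT) replicate 3 and L3mbtl3 KO/+ replicates 1 and 2, and the high libraries were WT replicates 1 and 2 and KO/+ replicates 3 and 4, so that each side mixes genotypes. WT pups carried the normal L3mbtl3 gene and KO/+ pups carried 1 knockout and 1 normal allele. Which part of the gene was deleted, the litters, the sexes and the time of dissection are not in the labels. Each sample was whole-cerebellum poly(A) RNA, sequenced as a directional library from RNA with an integrity number of at least 7, per the labels' protocols. The design text counts KO/+ libraries by mouse but WT libraries by cerebellum only, so the spread between WT libraries may be partly technical. By Xist and the Y-linked gene Ddx3y, WT replicates 1 and 3 were female-type and WT replicate 2 male-type, so that WT replicate 2 came from another mouse.

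Because Mki67 set the sides in these same libraries, every gene in the low against high contrast was described without a test. A p-value appears only for genotype, which the rule did not use, and for the interaction of genotype with the side, which does use the sides. Mki67 encodes a protein of dividing cells and lies at chr7:135689784-135716361 on the minus strand (GRCm38). It stood at 62.2, 62.4 and 60.2 CPM of library total on the low side and at 195, 213, 155 and 182 CPM on the high side. The library just inside the threshold was KO/+ replicate 1 at 62.4 CPM, and the library just outside was KO/+ replicate 3 at 154.7 CPM. Throughout, low values are given in the order WT replicate 3, KO/+ replicate 1 and KO/+ replicate 2, and high values in the order WT replicates 1 and 2 and KO/+ replicates 3 and 4.

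In the postnatal cerebellum most dividing cells are the progenitors of granule neurons, which lie in the external granule layer. They express the transcription factor Atoh1 and are driven to divide by Sonic hedgehog from Purkinje cells, through the receptor Ptch1, the signal transducer Smo, the Gli transcription factors, Mycn and the D-type cyclins. Progenitors that stop dividing extend axons, migrate past Bergmann glia into the inner granule layer and replace early receptor subunits such as Grin2b with mature ones such as Gabra6. The layer disappears over the first weeks after birth, so that the number of its cells changes quickly with age.

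L3mbtl3 (chr10:26274468-26375971, minus strand), an MBT-domain chromatin reader that binds the Notch effector RBPJ, was at 22.6, 26.7 and 23.2 CPM in WT replicates 1 to 3 and 19.7, 17.4, 22.3 and 23.0 CPM in KO/+ replicates 1 to 4. The genotypes overlapped, so that its level does not check the genotype labels. Total expected counts ranged from 29248360 in KO/+ replicate 4 to 43761792 in WT replicate 3. Further values differed between the sides. Transcripts of the mitochondrial genome made up 3.96%, 4.74% and 4.55% of counts in the low libraries and 3.32%, 3.41%, 3.75% and 3.16% in the high ones. By Xist and the Y-linked gene Ddx3y, the low side held 2 female-type libraries and 1 male-type library and the high side 1 and 3. WT replicate 3 stood apart: 63 genes of at least 5 CPM were there over 3 times their level in every other library, against 0 such genes in each of the other 6. The part of these differences in the results below was not tested, and a count that changed without WT replicate 3 is given both ways.

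Across 16812 genes, 640 were lower and 388 higher in the low libraries, where a gene was counted as separated if no low library overlapped any high library and the mean difference was at least 1.5-fold. These were 3.81% and 2.31% of genes, from which nothing is read, since the rule used this contrast. The list counts below stand beside these shares. None or few separated genes in a short list are not read as a result about that list. Without WT replicate 3 the counts were 858 and 512, or 5.10% and 3.05% of genes. Among separated genes, 223 of the lower and 79 of the higher ones differed at least 2-fold. The deposited TPM (values scaled by transcript length and library size) on the log2(value + 1) scale gave 549 lower and 130 higher genes, so that the share of higher genes was 19.2% in place of 37.7%. Differences are given below as log2 CPM, low minus high, with a standard error (SE) from the spread within sides. The median difference over all genes was 0.01. KO/+ replicate 3 was the high library nearest to the low side for 64.1% of the lower and 69.3% of the higher genes.

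The same genes could be compared within each genotype, where WT replicate 3 was set against WT replicates 1 and 2, and KO/+ replicates 1 and 2 against KO/+ replicates 3 and 4. These contrasts share no library. Across all genes the WT and KO/+ differences correlated with Pearson's r of 0.36 and Spearman's rho of 0.42, a description across genes, which are not independent. A separated gene has the same direction within both genotypes by definition, so only the size of its difference could vary. Of the separated genes, 436 of the lower and 204 of the higher ones differed at least 1.5-fold within WT and within KO/+. The share of all genes that differed so within both was not counted, and nothing is read from these counts. The plot of within-genotype differences shows mitosis and replication genes in the lower left corner, lower in the low libraries of both genotypes.

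**Figure D1:**
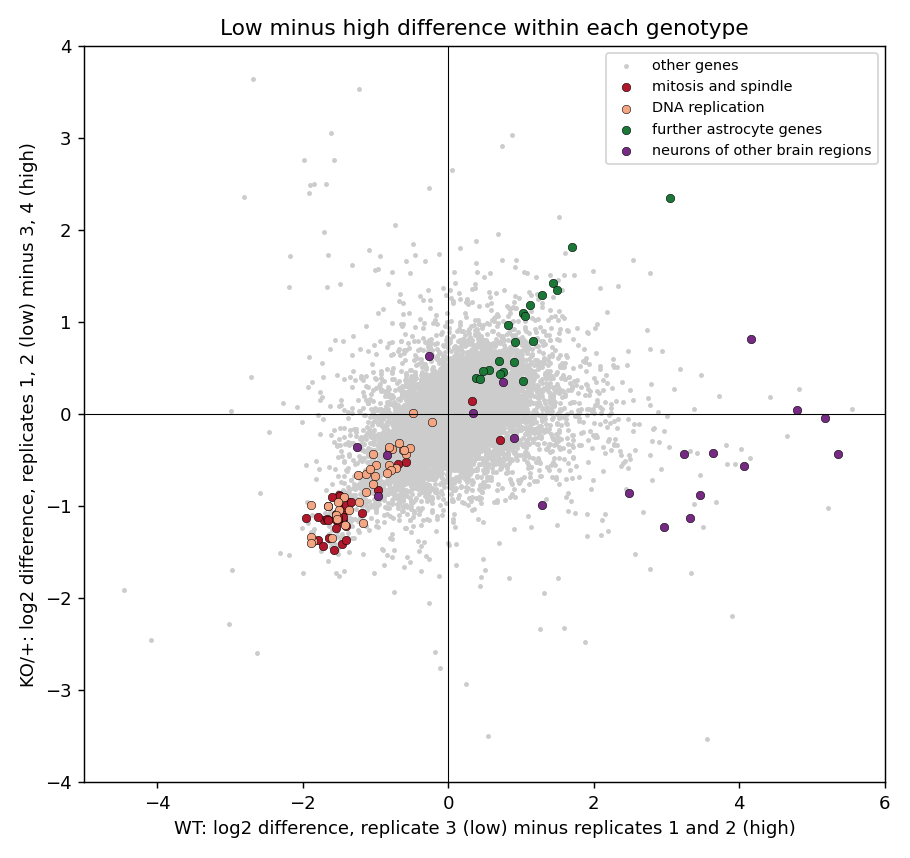
Each point is a gene, placed by its log2 difference in CPM, low minus high, within WT (x axis) and within KO/+ (y axis); coloured points are members of 4 gene lists and 10 genes lie outside the axes. The 40 mitosis genes have a median of -1.48 in WT and -1.12 in KO/+, the 20 further astrocyte genes are above 0 on both axes, and genes of neurons of other brain regions are mostly displaced along the WT axis. The astrocyte and other-region lists were drawn up after these values were seen, so nothing is read from their places.

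Genes of cell division were lower in all 3 low libraries. Of 40 measured genes of mitosis and the spindle, 36 were separated and lower, 0 were separated and higher, and the median difference was -1.27. The count was also 36 without WT replicate 3. Top2a, the topoisomerase that untangles chromosomes before they part, stood at 56.8, 66.9 and 62.5 CPM on the low side and 163, 170, 137 and 149 CPM on the high side (log2 difference -1.32, SE 0.10). The sides did not overlap, and the high libraries held 2.49 times the low level. Ccnb1, the cyclin of mitotic entry, was at 15.7, 21.1 and 16.8 CPM against 45.1, 44.4, 41.6 and 40.4 CPM (difference -1.27, SE 0.14). Foxm1, a transcription factor that drives genes of mitosis, was at 8.08, 8.85 and 7.84 CPM against 25.0, 25.2, 18.8 and 24.2 CPM (difference -1.48, SE 0.11). The kinetochore motor gene Cenpe and the spindle pole gene Aspm differed by -1.57 (SE 0.09) and -1.53 (SE 0.06). The members that were not separated were Anln, Cit, Mad2l1 and Nek2. Cit, which encodes a kinase of cytokinesis that neurons also express, was at 77.4 CPM in WT replicate 3 and at 35.2 to 53.0 CPM in the other 6 libraries.

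The replication genes followed with smaller differences. Of 37 measured, 27 were separated and lower (26 without WT replicate 3), 0 were higher, and the median was -0.85. Mcm10, an initiation factor of DNA replication, was at 3.76, 5.18 and 3.63 CPM on the low side and 13.9, 14.1, 9.57 and 14.0 CPM on the high side (difference -1.61, SE 0.21). Its lowest high library was KO/+ replicate 3. The thymidine kinase gene Tk1 differed by -1.58 (SE 0.20), Uhrf1, which guides maintenance DNA methylation, by -1.59 (SE 0.17), and Mcm2, a subunit of the replicative helicase, by -1.24 (SE 0.13). Pcna, the sliding clamp, stood at 71.5, 78.9 and 75.5 CPM against 113, 105, 95.5 and 107 CPM, and Dnmt1, the maintenance methyltransferase, at 78.1, 79.8 and 71.3 CPM against 115, 118, 87.7 and 118 CPM. In both genes the sides did not overlap, but the differences of -0.48 (SE 0.07) and -0.51 (SE 0.12) were under 1.5-fold.

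Promoter letters of both groups were read to show what the members share beyond the contrast. Promoters were taken from RefSeq (GRCm38.p6), 250 bases before to 50 after each start, and searched on both strands for TTTGAA, the core of the cell cycle homology region, for CCAAT, and for TTTGGCGC or TTTCGCGC, forms of the E2F site that can overlap on opposite strands. The table held 33 of the 40 mitosis genes (35 windows) and 29 of the 37 replication genes (36 windows). TTTGAA was in 26 mitosis windows (74.3%) and 4 replication windows (11.1%), against 17.9% of all 32851 windows. CCAAT was in 77.1%, 63.9% and 37.4% of these, and an E2F form in 2.86%, 30.6% and 0.813%. A match is a description of the letters and not a bound site. The 120 bases before the start are given for 4 mitosis genes and 2 replication genes, all separated and lower, with the matches on either strand in capitals. The mitosis genes were picked for a TTTGAA and the replication genes for an E2F form in this stretch. In Mcm6 both E2F forms overlap in 1 run.
Top2a: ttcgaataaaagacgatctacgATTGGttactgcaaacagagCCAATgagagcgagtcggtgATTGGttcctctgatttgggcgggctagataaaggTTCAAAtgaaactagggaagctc
Kif2c: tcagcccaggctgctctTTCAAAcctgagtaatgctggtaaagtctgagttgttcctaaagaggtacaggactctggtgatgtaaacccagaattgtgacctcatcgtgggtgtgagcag
Ect2: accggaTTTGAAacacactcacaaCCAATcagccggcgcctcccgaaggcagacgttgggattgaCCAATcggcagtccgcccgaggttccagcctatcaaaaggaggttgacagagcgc
Cdk1: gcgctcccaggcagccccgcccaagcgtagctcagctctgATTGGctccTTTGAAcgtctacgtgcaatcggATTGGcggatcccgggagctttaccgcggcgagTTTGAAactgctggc
Orc1: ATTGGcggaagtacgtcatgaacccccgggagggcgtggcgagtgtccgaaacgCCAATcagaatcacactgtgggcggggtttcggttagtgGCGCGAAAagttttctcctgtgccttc
Mcm6: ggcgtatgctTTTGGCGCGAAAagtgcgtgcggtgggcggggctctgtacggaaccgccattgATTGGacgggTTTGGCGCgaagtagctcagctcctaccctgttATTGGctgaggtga

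These stretches lie at chr11:99024190-99024309 for Top2a, chr4:117178773-117178892 for Kif2c, chr3:27153879-27153998 for Ect2 and chr10:69352913-69353032 for Cdk1, all on the minus strand. The Orc1 stretch is chr4:108579334-108579453 on the plus strand and the Mcm6 stretch is chr1:128359706-128359825 on the minus strand. Kif2c encodes a microtubule depolymerase, Ect2 an exchange factor of cytokinesis and Cdk1 the mitotic kinase, and their differences were -1.29 (SE 0.13), -1.26 (SE 0.11) and -1.26 (SE 0.09). Orc1, of the origin recognition complex, and Mcm6, of the helicase, differed by -1.34 (SE 0.26) and -1.18 (SE 0.13).

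**Figure D2:**
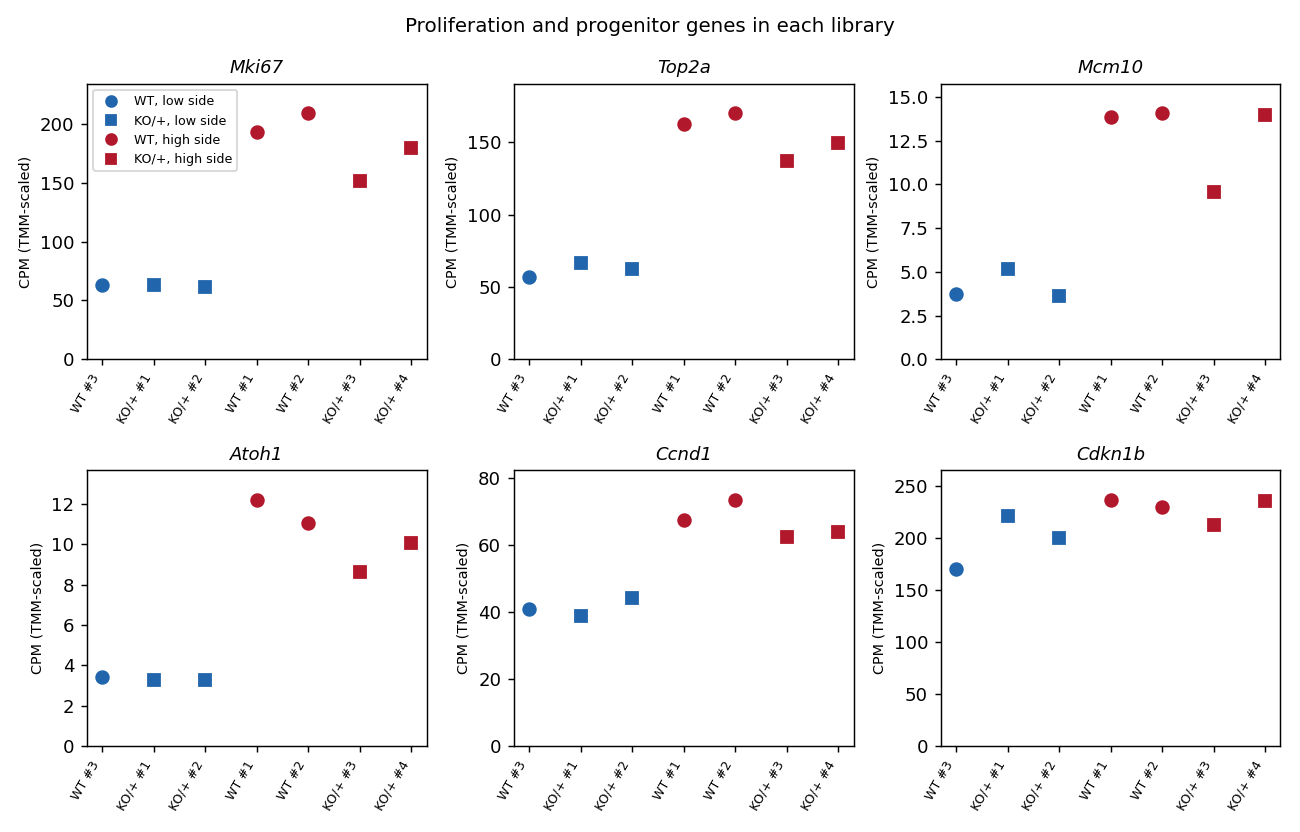
CPM scaled by TMM for 6 genes in each of the 7 libraries, low libraries in blue and high libraries in red, with circles for WT and squares for KO/+; each y axis starts at 0. Mki67, which set the sides, Top2a, Mcm10, Atoh1 and Ccnd1 leave a gap between the sides, while Cdkn1b ranges from 170 to 221 CPM in low and from 212 to 237 CPM in high libraries.

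Regulators of cell cycle entry were lower as well. Of 18 measured G1 cyclins, Myc genes and E2F genes, 11 were separated and lower (10 without WT replicate 3) and 0 higher, with a median of -0.68. Ccnd2, a D-type cyclin of granule neuron progenitors, was at 83.5, 106 and 91.4 CPM against 218, 233, 194 and 209 CPM (difference -1.19, SE 0.12). Ccnd1 was at 41.0, 38.8 and 44.1 CPM against 67.3, 73.4, 62.2 and 63.9 CPM (difference -0.69, SE 0.07), a smaller gap than that of Ccnd2. Mycn, a Hedgehog-responsive growth regulator, was at 29.4, 34.3 and 32.5 CPM against 67.3, 66.0, 58.5 and 63.0 CPM (difference -0.99, SE 0.08). The kinase genes Cdk6 and Cdk4 differed by -1.23 (SE 0.10) and -0.68 (SE 0.13), and the repressors E2f8 and E2f7 by -1.39 (SE 0.14) and -1.23 (SE 0.13). None of the 8 measured CDK inhibitors was separated, and their median was -0.01, at -0.34 within WT and 0.07 within KO/+. Over all genes 3.81% were separated and lower and 2.31% higher, so 0 of 8 is near those shares. Without the fold minimum, 2 inhibitors were lower and 1 higher without overlap. Of the 8, 6 were negative within WT and 3 within KO/+. Cdkn1b, the inhibitor p27 of cell cycle exit, stood at 170, 221 and 200 CPM against 237, 230, 212 and 236 CPM, so that its sides overlapped.

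Genes of granule neuron progenitors differed unequally. Of 16 measured, 7 were separated and lower and 0 higher, also without WT replicate 3, and the median was -0.39. Atoh1 (chr6:64729125-64731245, plus strand), which specifies these progenitors, was at 3.43, 3.30 and 3.27 CPM in low libraries and 12.2, 11.0, 8.62 and 10.1 CPM in high libraries, a difference of -1.63 (SE 0.11). The low libraries were nearly alike, and the high libraries held 3.09 times their level. Mfap4, a matrix gene, was at 18.5, 20.1 and 14.6 CPM against 75.7, 59.1, 29.8 and 55.7 CPM (difference -1.56, SE 0.32), with KO/+ replicate 3 lowest on its side. The zinc finger gene Insm1 and the helix-loop-helix gene Nhlh1 differed by -1.05 (SE 0.19) and -0.89 (SE 0.19). Zic1 and Zic2, transcription factors that granule neurons keep after they stop dividing, overlapped between the sides, with differences of -0.13 (SE 0.17) and -0.25 (SE 0.15). In whole tissue, fewer cells of a type and less RNA per cell cannot be told apart.

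Within the Hedgehog pathway Gli1, Gli2 and Sfrp1 were separated, and the receptor gene Ptch1 was not. Of 15 measured, 4 were separated and lower (6 without WT replicate 3) and 0 higher, with a median of -0.38. Gli1, a transcription factor that is itself a target of the pathway, was at 18.8, 18.2 and 17.3 CPM against 33.5, 33.9, 27.1 and 32.1 CPM (difference -0.80, SE 0.08). Gli2, a further transcription factor of the pathway, differed by -1.25 (SE 0.18), and Sfrp1, a secreted Wnt inhibitor, by -0.84 (SE 0.14). Ptch1, receptor and target of the ligand, was at 173, 146 and 168 CPM against 163, 169, 175 and 167 CPM, so that its sides overlapped (difference -0.05, SE 0.08). The transducer gene Smo (difference -0.11, SE 0.09) and the ligand gene Shh (0.37, SE 0.25) also overlapped.

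Genes of newly formed granule neurons were partly lower, and 2 genes on the list of mature ones were higher. Of 18 measured genes of differentiating granule neurons, 6 were separated and lower and 0 higher, with a median of -0.26. Dcx, a microtubule protein of migrating neurons, was at 146, 186 and 139 CPM against 259, 307, 267 and 270 CPM (difference -0.82, SE 0.14). Cntn2, an adhesion molecule of premigratory granule neurons, was at 377, 396 and 368 CPM against 649, 639, 509 and 683 CPM (difference -0.70, SE 0.10). The transcription factor gene Nfib differed by -0.78 (SE 0.14). Neurod1, a differentiation factor of the same cells, overlapped between the sides, at 575, 936 and 747 CPM against 937, 914, 823 and 932 CPM. Its low value was that of WT replicate 3. Among 20 genes of axon growth and immature neurons, the transcription factor gene Sox11 (difference -0.79, SE 0.18) and the axon guidance gene Draxin (-0.94, SE 0.11) were the 2 separated ones, and 17 of the 20 had negative differences. Without WT replicate 3, 4 of the 20 were separated.

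Of 18 measured genes of mature granule neurons, 2 were separated and higher (3 without WT replicate 3) and 0 lower, with a median of 0.13. The direction of this median differed between genotypes, at -0.24 within WT and 0.29 within KO/+, where 13 and 3 of the 18 genes were negative. Snap25, of the synaptic vesicle fusion machinery, was at 1197, 1510 and 1372 CPM on the low side and 833, 806, 998 and 863 CPM on the high side (difference 0.63, SE 0.12). Vsnl1, a neuronal calcium sensor, was at 350, 392 and 355 CPM against 190, 211, 248 and 231 CPM (difference 0.74, SE 0.10). Cbln1, the granule cell protein that organises synapses onto Purkinje cells, and Slc17a7, their vesicular glutamate transporter, overlapped, with differences of 0.16 (SE 0.21) and 0.20 (SE 0.21).

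Among receptor subunits, a few mature forms were higher and 1 early form was lower. Of 8 measured subunits of the mature cerebellum, 2 were separated and higher, and 3 without WT replicate 3. Gabrb2, a GABA-A receptor subunit of mature neurons, was at 188, 176 and 182 CPM against 118, 105, 129 and 104 CPM (0.68, SE 0.08). Gabra6, the subunit particular to mature granule neurons, was at 595, 888 and 822 CPM against 536, 512, 567 and 517 CPM, without overlap but under 1.5-fold (0.51, SE 0.18). Grin2b, the early NMDA receptor subunit, was lower, at 65.5, 35.7 and 34.5 CPM against 72.8, 97.0, 66.2 and 77.1 CPM (-0.84, SE 0.32). The values of WT replicate 3 and KO/+ replicate 3 nearly met, and the difference was -0.36 within WT and -1.03 within KO/+. Over all libraries the remaining 8 early subunits and transporters had positive differences. The early list had a median of 0.25, at 0.63 within WT and 0.015 within KO/+, and of 0.10 without WT replicate 3. Without WT replicate 3, 2 of the 9 were separated and lower. The later NMDA subunit gene Grin2c overlapped (0.10, SE 0.21). Among 17 genes of voltage-gated channels, 2 were separated and higher and 1 lower, against 2.31% and 3.81% of all genes. The list median was 0.50 within WT and 0.01 within KO/+. Kcnab1, a potassium channel subunit gene, differed by 0.67 (SE 0.11), and Cacna1e, a calcium channel gene, by -0.61 (SE 0.18).

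**Figure D3:**
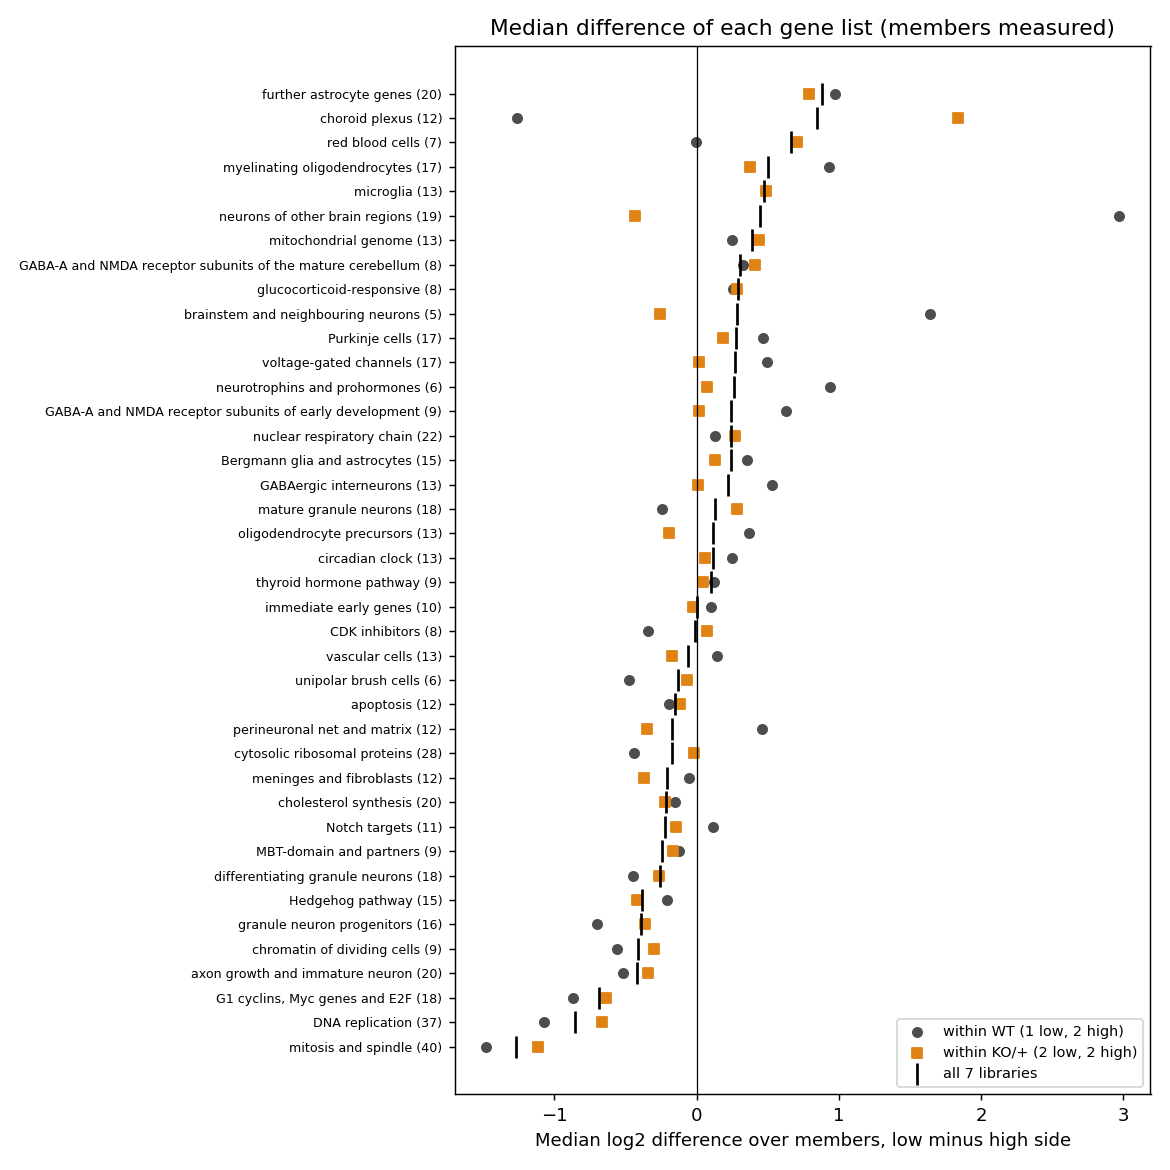
Median log2 difference in CPM, low minus high, over the measured members of each gene list (number in brackets), for all 7 libraries (bars), within WT (circles) and within KO/+ (squares). The cell division lists lie lowest, at -1.27 for mitosis and -0.85 for replication, and the WT and KO/+ medians of the choroid plexus list lie on opposite sides of 0, at -1.26 and 1.84.

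Astrocyte genes were among the genes with the largest positive differences. Etnppl (chr3:130617448-130637521, plus strand), an astrocyte enzyme that breaks down phosphoethanolamine, was at 33.5, 17.6 and 24.7 CPM on the low side and 4.59, 3.52, 7.68 and 2.13 CPM on the high side (difference 2.58, SE 0.47). Fam107a, an actin-binding protein gene of astrocytes, was at 991, 1184 and 1403 CPM against 435, 374, 644 and 431 CPM (1.36, SE 0.22). The metallothionein gene Mt1 was at 133, 119 and 138 CPM against 47.9, 46.2, 63.0 and 40.1 CPM (1.41, SE 0.15), and Mt2 differed by 1.46 (SE 0.18). In each of these genes KO/+ replicate 3 was the highest of the high libraries. Folh1, a glutamate carboxypeptidase gene, differed by 1.83 (SE 0.31). A list of 20 astrocyte genes, drawn up after these values had been seen, held 13 separated and higher genes, 12 without WT replicate 3, and its median was 0.88. Since it includes the genes just named, nothing is read from its count.

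Other glial lists differed less. Of 15 measured genes of Bergmann glia and astrocytes, 3 were separated and higher (S100b, Gjb6 and A2m; 4 genes without WT replicate 3), 1 was separated and lower (Fabp7), and the median was 0.24. S100b, a calcium-binding protein gene, was at 300, 330 and 384 CPM against 187, 171, 234 and 170 CPM (0.83, SE 0.15). Gjb6, the gap junction gene connexin 30, differed by 0.87 (SE 0.17). Fabp7, a fatty acid binding protein gene of radial and immature glia, was at 144, 151 and 143 CPM against 307, 319, 262 and 315 CPM (-1.04, SE 0.07). The abundant members Aqp4, the water channel gene, and Gdf10, of Bergmann glia, overlapped between the sides (0.02, SE 0.05, and 0.24, SE 0.09).

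**Figure D4:**
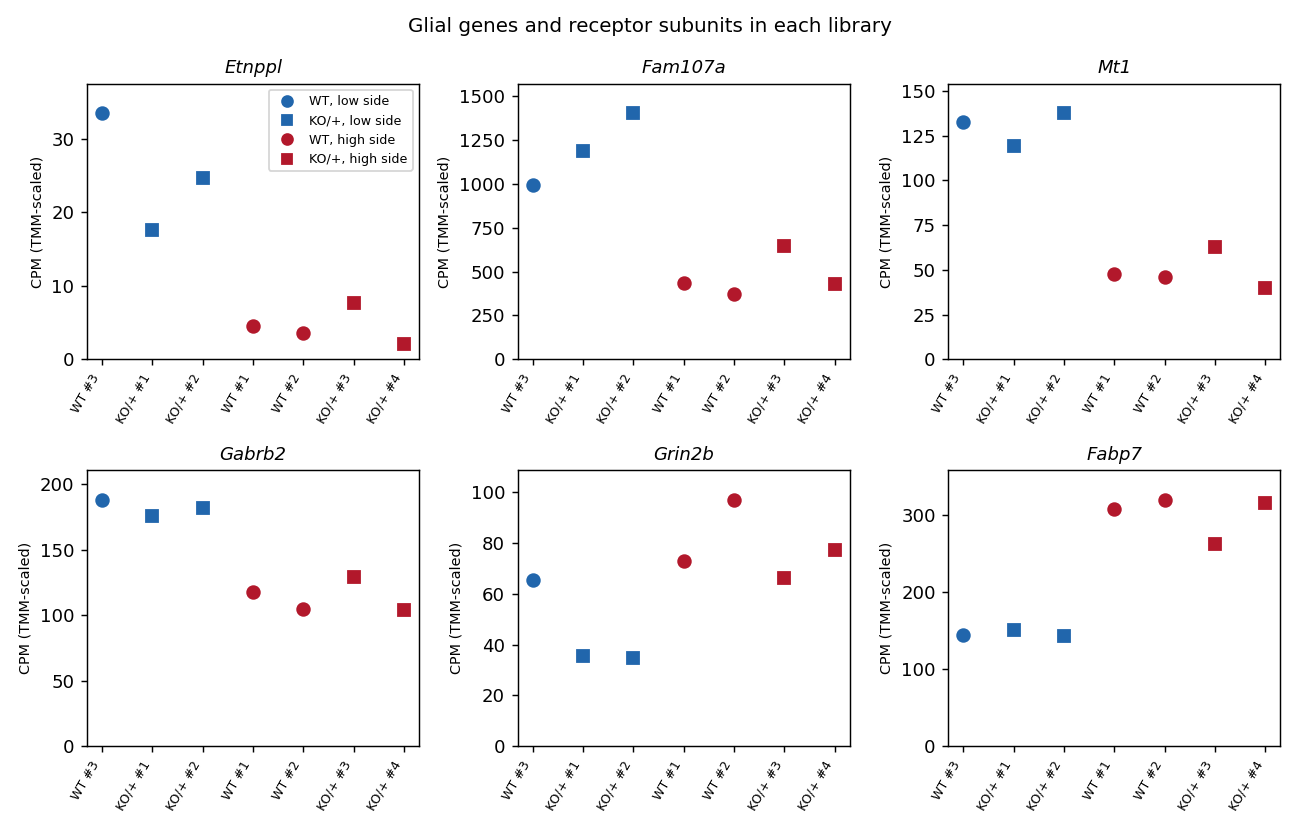
CPM scaled by TMM for 6 genes in each library, low libraries in blue and high libraries in red, with circles for WT and squares for KO/+; each y axis starts at 0. Etnppl, Fam107a, Mt1 and Gabrb2 are higher in all 3 low libraries, Fabp7 is lower in all 3, and Grin2b of WT replicate 3 at 65.5 CPM lies next to that of KO/+ replicate 3 at 66.2 CPM.

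Of 13 measured microglial genes, 4 were separated and higher (3 without WT replicate 3), 0 were lower, and the median was 0.47 over all libraries, 0.48 within WT and 0.49 within KO/+. Cx3cr1, the fractalkine receptor gene, was at 23.5, 18.1 and 20.5 CPM against 14.5, 12.7, 18.0 and 10.5 CPM (0.59, SE 0.20). KO/+ replicate 3 nearly met KO/+ replicate 1. Tmem119, Siglech and Aif1, also markers of microglia, differed by 0.65 (SE 0.15), 0.95 (SE 0.27) and 0.95 (SE 0.18). Of 17 myelin genes, 16 had positive differences, but Apod, a lipocalin gene, was the only separated one (0.95, SE 0.26). Mbp, a structural protein gene of myelin, was at 8638, 5796 and 7982 CPM against 5558, 4970, 6745 and 4018 CPM, so that KO/+ replicate 3 overlapped the low side. Of 13 genes of oligodendrocyte precursors, the proteoglycan gene Vcan was separated and lower (-0.66, SE 0.18), the count without WT replicate 3 was 3, and the list median was 0.37 within WT and -0.19 within KO/+.

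Lists of the other cerebellar neuron types showed no separated member. This held for 17 Purkinje cell genes (median 0.28), 13 genes of GABAergic interneurons (0.22) and 6 genes of unipolar brush cells (-0.13), although 1 Purkinje gene was separated without WT replicate 3. Over all genes 3.81% were separated and lower and 2.31% higher, so 0 in lists this short is near those shares. Without the fold minimum, 6 Purkinje genes were higher and 1 lower without overlap. Over all genes, 12.6% were higher and 14.0% lower in this way. The interneuron median was 0.53 within WT and 0.01 within KO/+. Pcp2, a Purkinje cell protein gene, was at 231, 246 and 290 CPM against 211, 218, 221 and 189 CPM (0.28, SE 0.11), without overlap but under 1.5-fold. The abundant Itpr1, the calcium release channel gene, overlapped (0.25, SE 0.27).

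Genes of mitochondria and ribosomes differed by little. All 13 genes of the mitochondrial genome had positive differences (median 0.39), 8 without overlap between the sides but 0 separated (1 without WT replicate 3). All 22 nuclear genes of the respiratory chain and ATP synthase were also positive (median 0.24), 15 without overlap. Over all genes, 12.6% were higher and 14.0% lower without overlap. All 28 ribosomal protein genes were negative (median -0.18), at -0.44 within WT and -0.02 within KO/+, where 19 of the 28 were negative. Of 20 genes of cholesterol synthesis and uptake, a list drawn up after the values were seen, 10 were lower without overlap and 1 was separated. Srebf2, the transcription factor gene of this pathway, was at 202, 189 and 176 CPM against 241, 243, 218 and 247 CPM (-0.33, SE 0.07).

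Of the remaining lists, Notch targets (11 measured, median -0.22), apoptosis genes (12, -0.15), circadian clock genes (13, 0.11) and thyroid hormone genes (9, 0.10) held 0 separated members. Over all genes 3.81% were separated and lower and 2.31% higher. Without WT replicate 3, 2 Notch targets were separated and lower. Egr2 was the separated and lower gene among 10 immediate early genes (-1.54, SE 0.20), at no more than 1.15 CPM in any library. Sult1a1, a sulfotransferase gene, and Zbtb16, a zinc finger gene, were separated and higher among 8 glucocorticoid-responsive genes (1.76, SE 0.21, and 0.65, SE 0.16), and the count without WT replicate 3 was 3. Of 12 matrix and perineuronal net genes, Tnc and Vcan were separated and lower, and Tnc differed by -0.84 (SE 0.17). Without WT replicate 3 the count was 4, and the list median was 0.46 within WT and -0.35 within KO/+. Of 9 chromatin genes of dividing cells, a list drawn up after values were seen, Hmgb2 and Ezh2 were separated and lower (-0.95, SE 0.14, and -0.70, SE 0.10). Among neurotrophin and prohormone genes looked up after values were seen, Bdnf was at 8.95, 8.998 and 8.25 CPM against 3.73, 3.68, 4.86 and 4.09 CPM (1.09, SE 0.10), and the prohormone convertase gene Pcsk1 differed by 1.34 (SE 0.27).

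Further genes with the largest differences belonged to no list. Gm42047, a long intergenic RNA, was at 6.80, 12.7 and 30.4 CPM against 119, 112, 94.7 and 124 CPM (-3.01, SE 0.63). Col2a1, a cartilage collagen gene, differed by -1.66 (SE 0.32), and Cdca2, a mitotic phosphatase regulator gene, by -1.58 (SE 0.15). Ctxn3, Fam81a, Myoc and Ly6a differed by 1.75, 1.20, 1.20 and 1.13. The extremes in each direction were processed pseudogenes, Rpl27-ps3 and Gm11518, whose reads can come from their parent genes, so that their levels are uncertain. Rpl27-ps3 was at 0, 0.058 and 3.68 CPM against 17.9, 7.55, 15.0 and 14.1 CPM, and Gm11518 at 11.0, 17.5 and 11.8 CPM against 0, 6.17, 0 and 0 CPM.

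Choroid plexus genes varied between libraries without following the sides, and meningeal genes were mixed. Ttr, the main secreted protein gene of choroid plexus, was at 11.7, 1349 and 947 CPM on the low side and 1.52, 938, 653 and 3.45 CPM on the high side. It was abundant in 4 libraries, 2 of each side, and near 0 in the others. None of 12 choroid plexus genes was separated, and 4 were separated and higher without WT replicate 3. Of 12 genes of meninges and fibroblasts, the collagen genes Col1a1 and Col3a1 and the proteoglycan gene Lum were separated and lower, with differences of -0.89 (SE 0.41), -0.82 (SE 0.32) and -0.67 (SE 0.18), and the prostaglandin synthase gene Ptgds was separated and higher (0.75, SE 0.28). KO/+ replicate 1 was the lowest library for both collagens, at 19.7 and 37.2 CPM. Vascular genes (13, median -0.06) and red blood cell genes (7, median 0.66) held 0 separated members, and 3 red blood cell genes were separated and higher without WT replicate 3.

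WT replicate 3 held transcripts that the other 6 libraries nearly lacked. Nrgn, a calmodulin-binding protein gene of forebrain neurons, was at 128 CPM there and at 3.98 to 5.22 CPM elsewhere, and Tcf7l2, a transcription factor gene of thalamus and midbrain, was at 49.2 CPM and at 3.07 to 5.58 CPM. Baiap3, a gene of secretory vesicle release, was at 40.7 CPM against 0.823 to 1.21 CPM, and Sst, the somatostatin gene, was at 31.0 CPM against 1.504 to 3.38 CPM. Over 19 measured genes of neurons of other brain regions, a list drawn up after these values were seen, the median difference was 2.97 within WT and -0.43 within KO/+. The list's mean log2 CPM was 4.47 in WT replicate 3 and 1.76 to 2.29 in the others. Of these genes, 1 was separated and lower, and 6 without WT replicate 3.

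**Figure D5:**
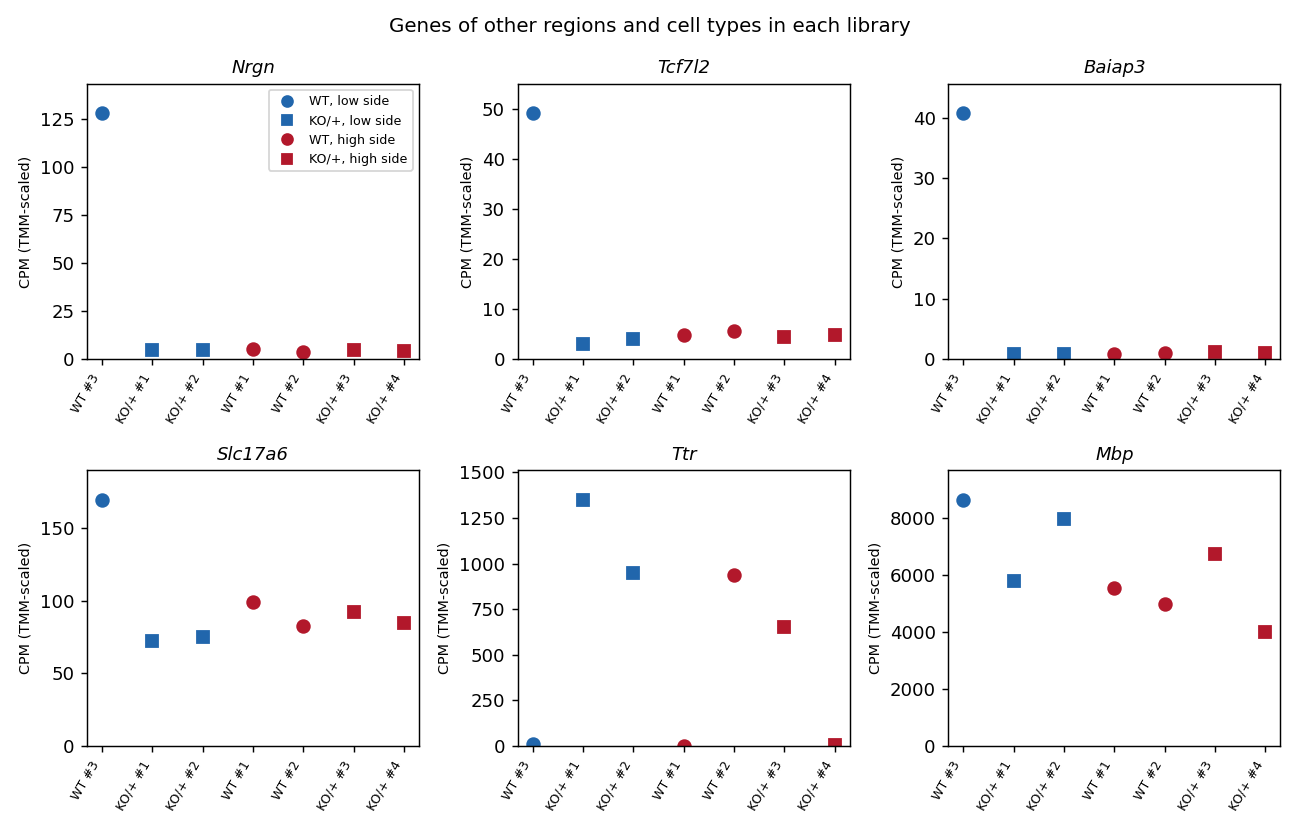
CPM scaled by TMM for 6 genes of other brain regions or cell types in each library, low libraries in blue and high libraries in red, with circles for WT and squares for KO/+; each y axis starts at 0. Nrgn, Tcf7l2 and Baiap3 are high in WT replicate 3 alone, Slc17a6 is highest there at 170 CPM, Ttr is near 0 in 3 libraries, and Mbp overlaps between the sides.

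Use of transcript isoforms, as the deposited percentage of a gene's transcripts, differed for few genes. Of 55482 transcripts of genes with at least 20 CPM, 11 in 8 genes (0.0198%) had sides that did not overlap and means at least 20 percentage points apart. In Suclg2, which encodes a subunit of succinyl-CoA ligase, isoform 204 made up 71.7%, 69.7% and 70.6% in the low libraries and 52.0%, 41.9%, 48.9% and 48.0% in the high ones. The gene itself differed by 0.15. In Tent4b, a poly(A) polymerase gene, isoform 202 made up 7.31%, 0.08% and 0% against 37.1%, 26.6%, 25.1% and 28.5%. The call in Ppp1r26 rested on KO/+ replicate 3 alone, at 11.5% for isoform 201 against 78.1% to 89.8% in the other libraries. The error of assigning reads to isoforms was not modelled.

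The targeted gene and the genotype were then compared across the sides. L3mbtl3 overlapped between the sides too, with a difference of -0.24 (SE 0.13). None of 9 genes of MBT-domain proteins and their partners was separated. In an edgeR quasi-likelihood fit of 16813 genes with the side as a term, 0 genes (0.00%) differed between KO/+ and WT at a Benjamini-Hochberg adjusted p of 0.05, and 861 had an unadjusted p under 0.05. DESeq2 called 3 genes and limma-voom 0. Without the side term edgeR also called 0, with 530 under the unadjusted threshold. In each direction, the 2 genes of at least 1 CPM with the smallest unadjusted p were Tpt1-ps3 and Mapk12, a stress kinase gene, with log2 changes of 0.60 (SE 0.12) and 0.42 (SE 0.09), and the axon guidance receptor genes Robo2 and Dcc, with -0.39 (SE 0.07) and -0.54 (SE 0.10). The adjusted p of edgeR was 0.809 for each. The common biological coefficient of variation, the spread between libraries beyond counting error, was 18.7% with genotype alone, 14.6% with the side alone and 13.7% with both. Since the sides were set by Mki67 in these same libraries, nothing is read from the lower spread with the side term.

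The difference of the low minus high contrast between KO/+ and WT was tested as an interaction, in which the WT low side is WT replicate 3 alone. edgeR called 97 genes (0.577%), of which 96 had a lower contrast in KO/+. In 95 of the 97, WT replicate 3 had the highest CPM, and in 70 it held over 2 times the next library. The test therefore cannot tell genotype apart from the single library, and it cannot be made without it. Of the 97, 4 were among the separated genes. The smallest adjusted p of edgeR, 0.000147, was that of Nrgn, Baiap3 and a model of Fam220a, with interaction terms of -4.75 (SE 0.21), -5.88 (SE 0.26) and -5.65 (SE 0.24). The gene models of Fam220a overlap, so that reads may be split between them, and they differ in another way. The first model was at 0.446 and 0.271 CPM in WT replicates 1 and 2 and at 18.9 to 20.9 CPM in the other 5 libraries, while the second was at 42.9 and 41.1 CPM against 23.5 to 25.7 CPM.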

How the data were processed

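Poly(A) RNA of 7 cerebella was sequenced in 3 WT and 4 KO/+ libraries. The submitters' processing notes name RSEM 1.3.1, STAR 2.5.2a, Trimmomatic 0.39 and bcl2fastq, and the builds mm10 and GRCm38. Their settings are not given in the sources used. Gene-level expected counts were estimated by the authors with RSEM, per the file headers. The deposited TPM values are scaled by length and library size, and the deposited isoform percent is each transcript's share of its gene, both per the file headers. The tables of the whole series were not used.

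Expected counts were rounded, and all 55450 gene IDs were matched to GENCODE M21. Genes passing filterByExpr on genotype were scaled by TMM factors (0.978 to 1.02) and given as log2 CPM with a prior count of 2. The difference is the mean of low minus high libraries, and its SE combines the variances within sides. No pair of libraries agreed within sampling noise, so all 7 were kept. Genotype was tested with edgeR 4.0.16 (glmQLFit, glmQLFTest, robust) with the side as a term or in interaction, at a Benjamini-Hochberg adjusted p of 0.05. In simulated data with 16813 genes the genotype fit recovered 52.2%, 80.6% and 97.0% of genes changed 1.5-, 2- and 4-fold, with 9 false calls. Changes were placed only in genes of at least 1 CPM, and counts were drawn independently for each library. No simulated library stood apart as WT replicate 3 does, so these shares need not hold for the real libraries. Alternatives were other scalings, filters, folds and pseudocounts, DESeq2 1.42.0, limma-voom 3.58.1, further covariates, the replicate number as a block, and leaving out each library.

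The sides, the 36 gene lists and 5 more were chosen with earlier results of these data known; the 5 were added after the values were seen, and the lists of further astrocyte genes, cholesterol, dividing-cell chromatin, neurons of other regions and neurotrophins are these. Named genes were Mki67, L3mbtl3, up to 12 separated genes per direction of at least 5 CPM with the largest difference, up to 4 separated and 2 abundant members of each list, a fixed set, and the genes of the genotype tests with the smallest p. A few others are named with their list counts or sequences. Some genes that the rule names are not reported here. R 4.3.3 and Python 3.11.15 were used.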

Additional observations from a re-analysis of the deposited data

Results flagged for a closer look

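Within KO/+ libraries, 3 values lay far from the others. The mean log2 CPM of the choroid plexus list was 0.29 in KO/+ replicate 4 and 3.31 to 3.77 in the other 3. The meninges list stood at 4.67 in KO/+ replicate 1 and at 5.34 to 5.46 in the others. Gdf10, a gene of Bergmann glia, was at 288.8 CPM in KO/+ replicate 3 and 332 to 339 CPM in the others. On the high side KO/+ replicate 3 lay apart for 2 lists, at 8.01 for axon growth and immature neuron genes (others 8.15 to 8.17) and at 2.29 for neurons of other brain regions (others 2.22 to 2.24). In all, 124 groups of 4 libraries were examined, and chance sets apart about 1 in 20.

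The low minus high contrast differed between genotypes for 97 genes by the interaction test of edgeR, where the WT low side is 1 library. The interaction was -4.75 for Nrgn, -5.88 for Baiap3, -4.38 for Sst and -3.67 for Tcf7l2, each high in WT replicate 3. The test cannot tell genotype apart from this single library. The overlapping models of Fam220a had -5.65 and 0.87, with edgeR adjusted p of 0.000147 and 0.0332.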

How the results depend on the processing

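Counts of lower and higher genes depended most on the fold minimum: 223 and 79 at 2-fold, and 2350 and 2115 with no minimum. Higher genes numbered 130 with deposited TPM and a pseudocount of 1, 237 with 0.1, and 204 when 1.5-fold was asked within both genotypes. Leaving out 1 library gave 630 to 858 lower and 388 to 836 higher genes, with 836 higher without KO/+ replicate 1 and 749 without KO/+ replicate 3. Those 2 fits use fewer libraries. For genotype with the side term, DESeq2 gave 3 genes, no filter on low counts 6, a minimum of 1 CPM 1, and leaving out 1 library 0 to 2. The interaction gave 463 genes with DESeq2, 394 with no filter, 219 at a threshold of 0.1 and 7 to 314 without 1 library: 7 without WT replicate 1, 8 without WT replicate 2, 43 without KO/+ replicate 1 and 314 without KO/+ replicate 2. It could not be fitted without WT replicate 3. Isoform calls numbered 155 at 10 percentage points and 4 for genes of at least 50 CPM. The cause of these changes was not tested.

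Same-numbered WT and KO/+ libraries had correlations of their deviations from the genotype means of 0.09, -0.17 and -0.02. In each such pair the libraries lay on opposite sides, so these values cannot decide whether the replicate numbers pair the samples. The replicate block with the side term gave 659 genes with 1 residual degree of freedom, and 1 gene without the side term. Among 162 named genes, 0 of the separated ones changed direction under the alternatives run, and direction was not counted for the others. For a separated gene, leaving out 1 library or adding a genotype term cannot reverse the direction. Only the deposited TPM and the library total alone could have done so. Of 1620 comparisons, 38 moved by more than the spread within sides, 36 of them with TPM. Of 480 list medians, 57 moved. Depth limits genes near 1 CPM most, such as Egr2 and Orc1.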
